A study of Mus musculus with 12 samples.

Results

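Whether deletion of p53 changed liver gene expression differently in fasted and in fed mice was examined as an interaction, that is, the Adeno-Cre minus Adeno-GFP difference in fasted livers minus the same difference in fed livers. All 12 of the 12 arrays entered this contrast, 3 in each of 4 groups. Tests ran on 23521 of the 41345 probe sets of the array, those that the platform annotation pairs with exactly 1 gene, and ranks and shares over all probe sets below refer to these. The same number can be read as the fasting response of Adeno-Cre livers minus that of Adeno-GFP livers. A value of 1 on this log2 scale means that the fold change in one diet was 2 times that in the other.

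All mice were males of the floxed p53 strain on a C57Bl/6N background (Trp53tm1Brn, in which recombination sites flank part of the gene), aged 2 months. Adenovirus carrying Cre recombinase (Adeno-Cre) or green fluorescent protein (Adeno-GFP) was given into the tail vein at equal titers, and 3 days later the mice either fed freely on standard chow or fasted for 24 h before liver was taken. The 4 groups were therefore Adeno-Cre fasted, Adeno-Cre fed, Adeno-GFP fasted and Adeno-GFP fed. Floxed alleles, virus injection and age were common to all groups, the Adeno-GFP livers kept p53, and deletion was limited to cells that the Cre virus infected. Since Trp53 itself was not analysed here, the deletion could be read only from p53 target genes.

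The tumour suppressor p53 switches on genes of cell cycle arrest, DNA repair and cell death, and in liver it also acts on sugar and lipid metabolism. Fasting lowers insulin and raises glucagon and glucocorticoids, which switch the hepatocyte from fat synthesis under SREBP1c, encoded by Srebf1, to fatty acid oxidation under PPARA and to glucose production. Viral DNA can be sensed in infected cells, and type I interferon then induces antiviral genes through the transcription factor complex ISGF3.

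The arrays were close to each other, with medians between 6.26 and 6.33 and correlations within groups of 0.991 to 0.994. Adeno-Cre fasted array 3 stood furthest from its group, with a residual mean square of 0.0277 where the other arrays had 0.0170 to 0.0193. Hepatocyte markers were high on every array, with list means of 12.23 to 12.44. A level near or below its array's median may be background signal. The labels number the replicates without stating that each is a separate mouse, so the tests weigh differences only against array-to-array spread, which may be technical. Single arrays are named below by group and that number.

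No probe set passed the threshold for the interaction. limma called 0 of 23521 (0%) at an adjusted p under 0.05, and 1776 (7.55%) lay under an unadjusted p of 0.05, 884 of them higher (3.76%) and 892 lower (3.79%). The smallest adjusted p was 0.0526. Each arm of the contrast gave calls in the same fit: 654 probe sets (2.78%) differed between Adeno-Cre and Adeno-GFP in fasted livers, 324 (1.38%) in fed livers, 705 (3.00%) with fasting after Adeno-GFP and 614 (2.61%) with fasting after Adeno-Cre. These comparisons share arrays with each other and with the interaction, so their values are set side by side only. Across probe sets, the Adeno-Cre changes of the 2 diets, which share no array, correlated at 0.503, given here as a description.

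The arrays limited what size of interaction could be seen. Its median standard error was 0.15, and the median half-width of its 95% interval was 0.33. That interval lay within 1 of 0 for 22510 probe sets (95.7%) and within 0.5 of 0 for 13291 (56.5%). The estimate itself was at least 1 in size for 66 probe sets (0.281%), 28 higher (0.119%) and 38 lower (0.162%). Of those 38, 14 were in a list of antiviral interferon genes, and of the 28, 7 were in a list of mitosis genes. In 12 of the 38 and 18 of the 28 the lowest group averaged less than every array median, so its level may be background signal. Among the mitosis genes this was so for Cenpk, Hmmr, Depdc1a and Shcbp1 but not for Nuf2, Top2a and Ect2. Among the antiviral genes it was so only for Mx1. Several of the 28 were probe sets of Sly, some with identical values. Without Adeno-Cre fasted array 3 still 0 probe sets passed and 2666 (11.3%) lay under an unadjusted p of 0.05.

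**Figure D1:**
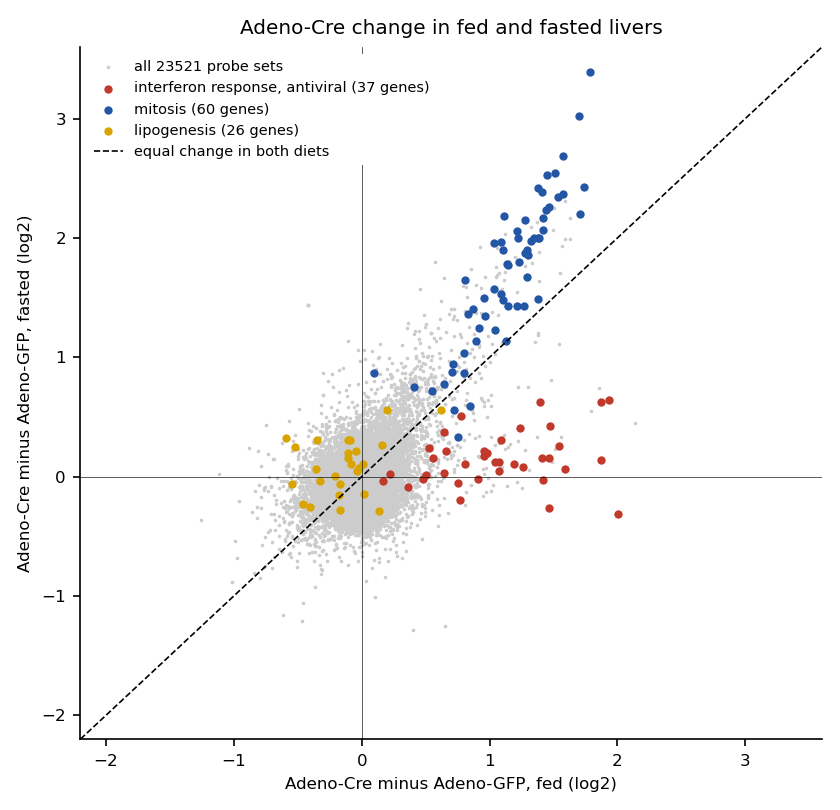
Adeno-Cre minus Adeno-GFP difference (log2) of each probe set in fed livers (horizontal) against fasted livers (vertical), n = 3 per group; grey points are all 23521 probe sets, coloured points are members of 3 gene lists, and the dashed line marks equal change. All 37 antiviral genes lie below the line and 57 of 60 mitosis genes above it, while 0 probe sets have an interaction with an adjusted p under 0.05.

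Genes that type I interferon induces against viruses had the lowest median interaction of the 31 gene lists examined. The lists were drawn up after earlier results of these data were known, so ranks and shares of lists are descriptions and not independent evidence. Members of a list were also read on the same arrays and may vary together, so their counts are not counts of separate tests. Both limits hold for every list below. All 37 measured of 42 listed antiviral genes had a negative estimate, from -2.32 to -0.20, with a median of -0.83 where the median over all probe sets was 0.00. Of the 37, 29 lay under an unadjusted p of 0.05, all lower, against 7.55% of all probe sets, and 0 passed after adjustment in limma. In 32 of the 37 all 3 Adeno-Cre fed arrays lay above the other 9, which was so for 1.91% of all probe sets. The median difference between Adeno-Cre and Adeno-GFP was 1.05 in fed and 0.12 in fasted livers, and the median fasting response was -0.05 after Adeno-GFP and -0.90 after Adeno-Cre.

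Ifit1, which binds foreign RNA that lacks the host cap methylation, had the lowest interaction of the 23521 probe sets tested. Its log2 level was 7.86, 8.32 and 8.12 in Adeno-GFP fed livers, 8.70, 8.01 and 8.81 in Adeno-GFP fasted livers, 10.96, 9.85 and 9.51 in Adeno-Cre fed livers and 8.52, 8.21 and 7.86 in Adeno-Cre fasted livers. The 3 Adeno-Cre fed arrays were above all others and the other groups overlapped. Ifit1 rose with Adeno-Cre in fed livers by 2.01 (SE 0.33, limma adjusted p = 0.0169) and stood at -0.31 in fasted livers (adjusted p = 0.671). The interaction was -2.32 (SE 0.46, 95% interval -3.32 to -1.32, n = 3 per group), with an adjusted p of 0.438. The rise in fed livers missed the threshold without Adeno-GFP fed array 1 (adjusted p = 0.0767) and also without Adeno-GFP fed array 3.

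Isg15, a ubiquitin-like protein coupled to many targets during infection, was at 7.49, 7.50 and 7.19 in Adeno-GFP fed livers, 7.65, 7.24 and 7.80 in Adeno-GFP fasted livers, 10.13, 8.65 and 9.00 in Adeno-Cre fed livers and 8.20, 7.69 and 7.23 in Adeno-Cre fasted livers. Adeno-Cre fed array 1 was the highest, and the remaining Adeno-Cre fed arrays were still above the other 9. Its interaction was -1.73 (SE 0.46, 95% interval -2.74 to -0.72, n = 3 per group) (limma adjusted p = 0.544). Rtp4, a chaperone of membrane receptors that interferon induces, was at 8.76, 9.23 and 8.98 in Adeno-GFP fed livers, 9.05, 8.48 and 9.08 in Adeno-GFP fasted livers, 10.68, 10.31 and 10.22 in Adeno-Cre fed livers and 9.25, 8.88 and 8.95 in Adeno-Cre fasted livers. Adeno-Cre fed livers were again the only group apart. The interaction of Rtp4 was -1.26 (SE 0.26, 95% interval -1.82 to -0.70, n = 3 per group), and its rise in fed livers of 1.41 (limma adjusted p = 0.00762) passed with any 1 array left out.

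Mx2, a GTPase that traps viral particles, had an interaction of -1.73 (-2.55 to -0.91), and Parp14, an ADP-ribosyltransferase, one of -0.95 (-1.45 to -0.45), with 95% intervals in parentheses. For both, Adeno-Cre fed arrays lay above the other 9 and the remaining groups were near each other. Over the antiviral list, 23 of 37 genes rose with Adeno-Cre in fed livers and 0 in fasted livers, and with fasting 0 fell after Adeno-GFP and 16 after Adeno-Cre. The background for a rise was 0.995% in fed and 2.31% in fasted livers, and for a fall with fasting 1.81% and 1.14%. The count of 23 went as low as 1 without Adeno-GFP fed array 1, and also fell by over 1.5 times without Adeno-GFP fed array 3, Adeno-Cre fed array 1 or Adeno-Cre fed array 3. The count of 16 went as low as 5 without Adeno-Cre fasted array 2, and moved by over 1.5 times also without Adeno-Cre fasted arrays 1 or 3 or Adeno-Cre fed array 1.

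The antiviral genes also stood out by their list mean. It was 9.01 to 9.74 in Adeno-Cre fed livers, highest in array 1, and 8.24 to 8.54 in Adeno-Cre fasted, 7.92 to 8.38 in Adeno-GFP fasted and 8.07 to 8.36 in Adeno-GFP fed livers. Without Adeno-Cre fed array 1 the median interaction was -0.62 and 23 members lay under an unadjusted p of 0.05. Markers of T and NK cells were slightly higher in the same group: the mean of 21 measured markers was 6.35 to 6.48 in Adeno-Cre fed livers and 6.25 to 6.34 on the other arrays, near the array medians. Monocyte and neutrophil markers overlapped between all groups (5.84 to 6.12). Their part in the result was not tested. In whole liver, fewer cells of a type and less RNA per cell cannot be told apart.

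Promoters of the antiviral genes are shown because the interferon-stimulated response element, the site bound by ISGF3, has a short and recognisable core. The core was searched as GAAA, any 2 bases and GAAA again, on both strands in the 250 bases before each RefSeq start site (build GRCm38.p6), counting overlapping matches. It was found for 9 of the 27 antiviral genes with a promoter entry (33.3%) and for 577 of 16990 tested genes (3.40%). The windows below are the 3 antiviral members of smallest interaction p that hold it, chosen with their values seen. Start sites on 1 chromosome, named with the mitosis promoter below, were left out of this choice. The windows are written in the direction of the gene with the matched letters (on either strand) in capitals. Ifit1 lies at chr19:34640639-34640888 on the + strand, Isg15 at chr4:156200819-156201068 on the - strand, and Ddx60, an antiviral helicase, at chr8:61927837-61928086 on the + strand.
Ifit1: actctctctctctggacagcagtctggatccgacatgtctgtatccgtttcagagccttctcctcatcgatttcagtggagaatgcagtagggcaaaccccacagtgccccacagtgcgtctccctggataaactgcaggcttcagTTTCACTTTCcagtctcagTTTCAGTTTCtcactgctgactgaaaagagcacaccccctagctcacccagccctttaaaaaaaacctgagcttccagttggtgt
Isg15: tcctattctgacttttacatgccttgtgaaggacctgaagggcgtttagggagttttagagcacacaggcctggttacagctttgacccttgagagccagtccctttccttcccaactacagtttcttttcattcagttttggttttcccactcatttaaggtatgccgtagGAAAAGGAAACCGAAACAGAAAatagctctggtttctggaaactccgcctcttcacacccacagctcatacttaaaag
Ddx60: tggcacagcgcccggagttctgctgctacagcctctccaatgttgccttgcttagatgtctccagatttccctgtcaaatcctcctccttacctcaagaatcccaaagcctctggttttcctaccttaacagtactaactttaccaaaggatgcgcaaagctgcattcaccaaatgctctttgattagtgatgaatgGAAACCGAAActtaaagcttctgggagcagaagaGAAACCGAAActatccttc
In Ifit1 the 2 matches lie 94 and 75 bases before the start, both on the opposite strand, in Isg15 the 3 matches overlap in 1 run, and in Ddx60 they lie 43 and 9 bases before it. A match describes letters and is not a measured binding site. The interactions of Isg15 and Ddx60 were -1.73 and -1.44.

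Interferon-induced GTPases, antigen presentation genes and chemokines had a smaller median of the same sign. Of 37 listed, 32 were measured, with a median interaction of -0.14, 26 negative and 6 positive. That median ran from -0.28 without Adeno-GFP fasted array 2 to -0.09 without Adeno-GFP fasted array 1, and moved by over 1.5 times also without Adeno-Cre fasted array 3. Of these genes, 9 lay under an unadjusted p of 0.05, all lower, against 7.55% of all probe sets. In 18 the Adeno-Cre fed arrays were above the other 9, against 1.91%. Gbp10, a guanylate-binding protein that attacks the vacuoles of intracellular microbes, was at 8.77, 9.56 and 9.10 in Adeno-GFP fed livers, 8.34, 7.94 and 8.37 in Adeno-GFP fasted livers, 11.42, 10.95 and 10.42 in Adeno-Cre fed livers and 8.75, 8.89 and 8.65 in Adeno-Cre fasted livers. Its interaction was -1.24 (SE 0.34, 95% interval -1.97 to -0.51, n = 3 per group) (limma adjusted p = 0.544). Adeno-GFP fasted livers were also lowest here, so that both injections gave lower values with fasting, -0.93 after Adeno-GFP (adjusted p = 0.0585) and -2.17 after Adeno-Cre (adjusted p = 0.000983).

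Igtp, an immunity-related GTPase, rose with Adeno-Cre in both diets, by 1.48 in fed livers (limma adjusted p = 0.00582) and 0.81 in fasted livers (adjusted p = 0.0222), with an interaction of -0.67 (-1.19 to -0.15). The rise in fasted livers missed the threshold without Adeno-Cre fasted arrays 1 or 2 or Adeno-GFP fasted array 2. Cxcl10, a chemokine that draws T cells, rose by 1.54 in fed and 1.11 in fasted livers (limma adjusted p = 0.0125 and 0.0218), with an interaction of -0.44 (-1.14 to 0.27). That value was -0.12 without Adeno-Cre fed array 1 and -0.63 without Adeno-GFP fasted array 2. Both rises missed the threshold without some arrays, the first without Adeno-GFP fed arrays 1 or 3 and the second without Adeno-Cre fasted arrays 1 or 2 or Adeno-GFP fasted array 2. Ccl12, a monocyte chemokine, is not a member of this list and is named for its small interaction p. Its level was 4.91, 4.97 and 5.05 in Adeno-GFP fed livers, 4.69, 4.94 and 5.15 in Adeno-GFP fasted livers, 6.85, 6.25 and 6.36 in Adeno-Cre fed livers and 5.23, 5.21 and 5.02 in Adeno-Cre fasted livers. It was above 6 on the Adeno-Cre fed arrays and from 4.69 to 5.23, under the array medians, on the other 9. The interaction of Ccl12 was -1.29 (SE 0.21, 95% interval -1.75 to -0.82, n = 3 per group) (limma adjusted p = 0.259).

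**Figure D2:**
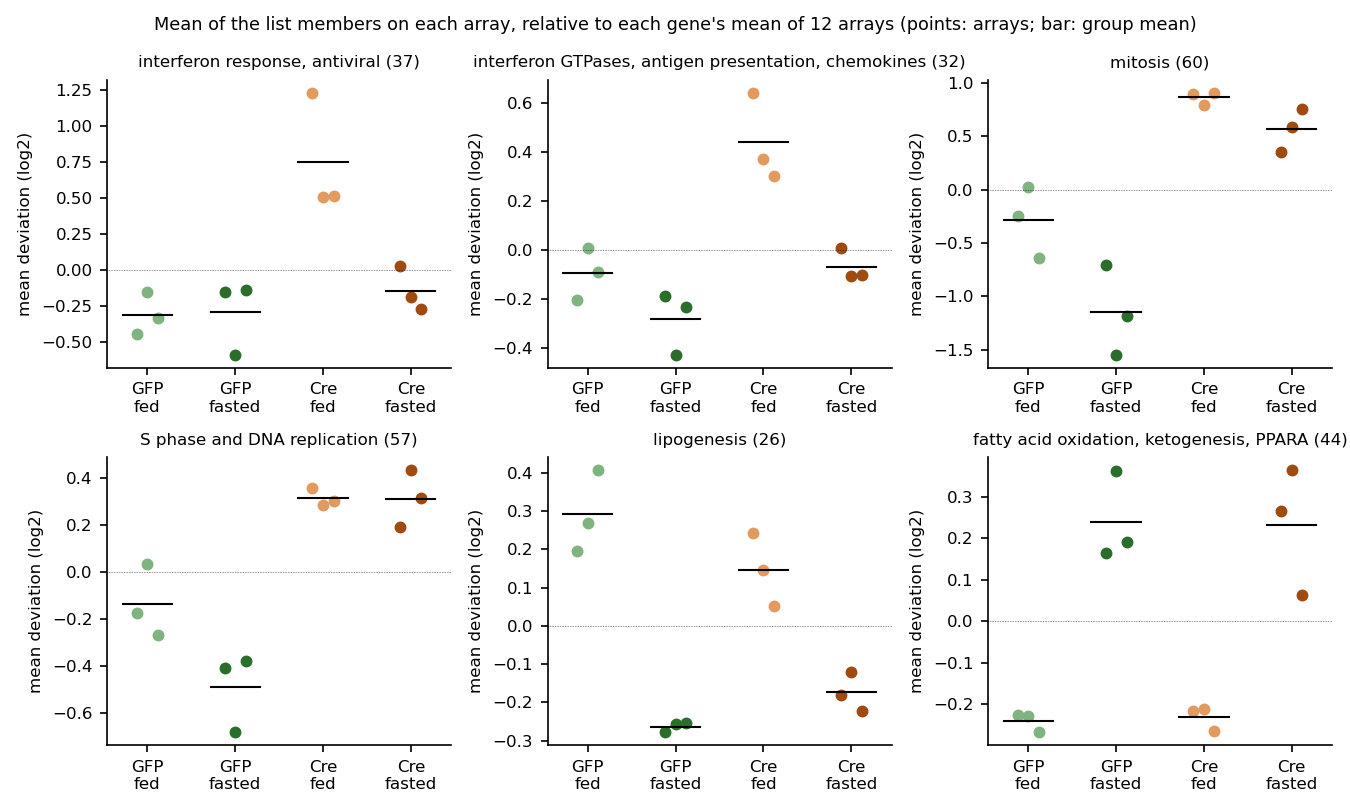
Mean deviation (log2) of the members of 6 gene lists from each gene's mean over all 12 arrays, 1 point per array and a bar at the group mean. Antiviral genes are high in the 3 Adeno-Cre fed arrays only, mitosis and S phase genes are lowest in the 3 Adeno-GFP fasted arrays, and genes of fatty acid oxidation separate fasted from fed arrays after both viruses.

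Genes of mitosis showed the opposite sign. The 60 measured of 64 listed genes had a median interaction of 0.61, and 57 of 60 estimates were positive. Of the 60, 17 lay under an unadjusted p of 0.05, against 7.55% of all probe sets. Of these 17, 16 were higher and 1 lower, and 0 of the 60 passed after adjustment in limma. With Adeno-Cre 58 of the 60 rose in fasted livers and 43 in fed livers, with median differences of 1.79 and 1.18. The background for such a rise was 2.31% and 0.995% of all probe sets. With fasting 22 fell after Adeno-GFP and 0 after Adeno-Cre, with medians of -0.86 and -0.33, against falls in 1.81% and 1.14% of all probe sets. In 32 of the 60 all 3 Adeno-GFP fasted arrays lay below the other 9, against 2.91% of all probe sets. In 27 the Adeno-Cre fed arrays lay above the other 9, against 1.91% of all probe sets.

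The spread between arrays was wide for these genes. Their list mean was 6.99, 6.15 and 6.51 on the Adeno-GFP fasted arrays, 7.45, 7.72 and 7.05 on the Adeno-GFP fed arrays, 8.58, 8.49 and 8.60 on the Adeno-Cre fed arrays and 8.05, 8.28 and 8.45 on the Adeno-Cre fasted arrays. Both Adeno-Cre groups were above both Adeno-GFP groups, and fasted values lay below fed values after each virus. The count of 17 was 39 without Adeno-GFP fasted array 1 and 36 without Adeno-GFP fed array 3, and it was 9 without Adeno-Cre fasted array 3 and 10 without Adeno-GFP fasted array 2 or Adeno-GFP fed array 2. The median interaction ran from 0.38 to 0.83 over those omissions. The 58 rises in fasted livers were 56 or more with any 1 array left out, whereas the 43 in fed livers went as low as 4 without Adeno-GFP fed array 3 and moved by over 1.5 times also without Adeno-GFP fed array 1 or any Adeno-Cre fed array. The 22 falls ranged from 9, without Adeno-GFP fed array 2, to 39, without Adeno-GFP fasted array 1, and moved by over 1.5 times with each array of the Adeno-GFP groups except Adeno-GFP fed array 3.

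Shcbp1, which acts at the midbody late in cell division, had the highest interaction of the list. It was at 7.74, 7.99 and 7.31 in Adeno-GFP fed livers, 6.42, 4.71 and 5.34 in Adeno-GFP fasted livers, 9.50, 9.44 and 9.46 in Adeno-Cre fed livers and 8.72, 8.96 and 8.96 in Adeno-Cre fasted livers. The Adeno-GFP fasted arrays were lowest and spread over more than 1 log2 unit, with the values of 4.71 and 5.34 under the array medians. Its interaction was 1.61 (SE 0.45, 95% interval 0.63 to 2.59, n = 3 per group) (limma adjusted p = 0.544), and its rise with Adeno-Cre in fasted livers was 3.39 (adjusted p = 0.000304). Cenpk, a centromere protein, had an interaction of 1.06 (0.46 to 1.67), and Ncaph, a condensin subunit, one of 0.87 (0.38 to 1.37).

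Kif23, a kinesin of the central spindle, differed in form. It was at 7.28, 7.50 and 7.17 in Adeno-GFP fed livers, 6.33, 6.00 and 6.40 in Adeno-GFP fasted livers, 7.68, 7.27 and 7.27 in Adeno-Cre fed livers and 7.06, 7.10 and 7.18 in Adeno-Cre fasted livers. Only the Adeno-GFP fasted arrays were apart, and the other 9 lay between 7.06 and 7.68. Kif23 fell with fasting after Adeno-GFP by 1.07 on the log2 scale (limma adjusted p = 0.00175) and stood at -0.30 after Adeno-Cre (adjusted p = 0.313), with an interaction of 0.78 (SE 0.19, 95% interval 0.36 to 1.20, n = 3 per group). Cdk1, the kinase that starts mitosis, and Top2a, which untangles chromosomes, had interactions of 0.80 (0.14 to 1.47) and 1.04 (0.21 to 1.87). Foxm1, a transcription factor for mitotic genes named after its value was seen, was the 1 member lower at an unadjusted p under 0.05 (-0.42).

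Genes of S phase and DNA replication shared the sign with smaller values. Of 61 listed, 57 were measured, with a median interaction of 0.38. Of these 48 were positive, and 22 lay under an unadjusted p of 0.05, all higher, against 7.55% of all probe sets. In 25 the Adeno-GFP fasted arrays were below the other 9, against 2.91% of all probe sets. With Adeno-Cre 39 of the 57 rose in fasted livers (30 to 39 with any 1 array left out) and 13 in fed livers. The background for such a rise was 2.31% and 0.995% of all probe sets. The count of 13 went as low as 1 without Adeno-GFP fed array 1, and moved by over 1.5 times also without Adeno-GFP fed array 3, Adeno-GFP fasted arrays 1 or 3, Adeno-Cre fasted array 2 or any Adeno-Cre fed array. The count of 22 was 12 without Adeno-Cre fasted array 2 and 13 without Adeno-GFP fed array 2.

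Dbf4, the activating subunit of the kinase that fires replication origins, was at 7.63, 8.10 and 7.55 in Adeno-GFP fed livers, 6.56, 6.32 and 6.33 in Adeno-GFP fasted livers, 8.85, 8.80 and 8.99 in Adeno-Cre fed livers and 8.23, 8.44 and 8.64 in Adeno-Cre fasted livers. Its groups did not overlap, in the order Adeno-GFP fasted, Adeno-GFP fed, Adeno-Cre fasted and Adeno-Cre fed from low to high. Its interaction was 0.91 (SE 0.20, 95% interval 0.46 to 1.35, n = 3 per group) (limma adjusted p = 0.544). Pcna, the sliding clamp of DNA polymerase, was at 9.98, 10.07 and 9.90 in Adeno-GFP fed livers, 9.75, 9.56 and 9.76 in Adeno-GFP fasted livers, 10.10, 9.99 and 10.15 in Adeno-Cre fed livers and 10.20, 10.41 and 10.36 in Adeno-Cre fasted livers. Adeno-Cre fasted livers were highest and Adeno-GFP fasted livers lowest, with the fed groups between them. Pcna rose with Adeno-Cre in fasted livers by 0.64 (limma adjusted p = 0.00219) and stood at 0.10 in fed livers (adjusted p = 0.736), with an interaction of 0.54 (0.26 to 0.81). Mcm7 and Mcm5, subunits of the replicative helicase, had interactions of 0.57 (0.27 to 0.87) and 0.52 (0.08 to 0.96), and Hells, a chromatin remodeller, one of 1.00 (0.38 to 1.62).

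Mitotic promoters often hold a cell cycle homology region, the element through which the DREAM complex represses genes in resting cells and through which p53 acts by way of p21. It was searched as TTTGAA or TTCGAA on both strands in the same windows. It was found for 18 of 47 mitosis genes (38.3%), 11 of 47 S phase genes (23.4%) and 17.5% of all 16990 tested genes. Kif11, the kinesin that separates the spindle poles and whose interaction was 0.98, is shown because it is the member of smallest interaction p with a match, chosen with its value seen, at chr19:37376132-37376381 on the + strand.
Kif11: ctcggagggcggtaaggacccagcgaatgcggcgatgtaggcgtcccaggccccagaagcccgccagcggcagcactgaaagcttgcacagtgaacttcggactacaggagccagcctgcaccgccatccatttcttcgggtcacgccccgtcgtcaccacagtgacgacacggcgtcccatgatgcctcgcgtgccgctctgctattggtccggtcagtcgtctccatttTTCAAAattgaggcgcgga
Its match is on the opposite strand and lies 13 bases before the start.

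**Figure D3:**
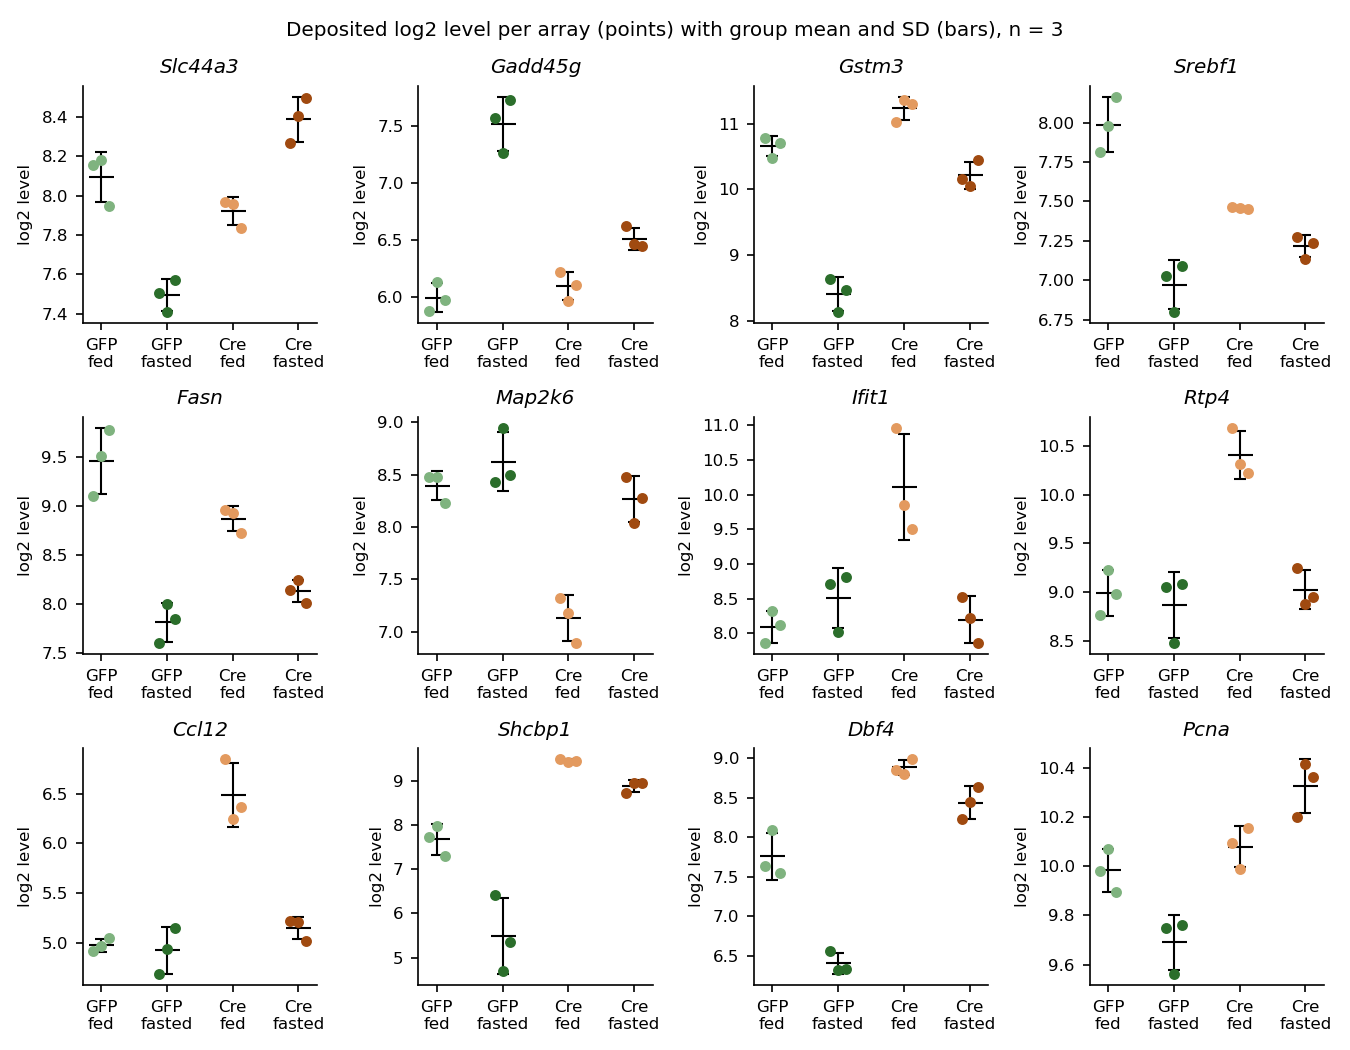
Deposited log2 level of 12 genes on each array (points), with the mean and SD of each group (bars, n = 3). Ifit1, Rtp4 and Ccl12 are high in Adeno-Cre fed livers only, Shcbp1 and Dbf4 are lowest in Adeno-GFP fasted livers, and Slc44a3 is lowest in Adeno-GFP fasted and highest in Adeno-Cre fasted livers.

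Genes of fat synthesis had a smaller median fasting response after Adeno-Cre than after Adeno-GFP. The median response of 26 measured genes was -0.46 after Adeno-GFP, with 16 falls, and -0.29 after Adeno-Cre, with 8 falls, against falls in 1.81% and 1.14% of all probe sets. The median interaction was 0.22, with 22 of 26 positive. Under an unadjusted p of 0.05 lay 8, 7 higher and 1 lower, against 7.55% of all probe sets. The 16 falls were 13 or more with any 1 array left out. The 8 falls went as low as 4 without Adeno-Cre fasted array 1, and moved by over 1.5 times also without Adeno-Cre fasted array 2 or Adeno-Cre fed arrays 1 or 2. The count of 8 under an unadjusted p was 4 without Adeno-Cre fasted array 2 or Adeno-GFP fed array 3 and 5 without Adeno-Cre fed array 2.

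Srebf1, whose product drives the fat synthesis genes under insulin, was at 7.81, 7.98 and 8.16 in Adeno-GFP fed livers, 7.03, 6.80 and 7.09 in Adeno-GFP fasted livers, 7.46, 7.46 and 7.45 in Adeno-Cre fed livers and 7.28, 7.14 and 7.24 in Adeno-Cre fasted livers. Adeno-GFP fed livers were highest and Adeno-GFP fasted livers lowest, and both Adeno-Cre groups lay between them without overlap. Srebf1 fell with fasting after Adeno-GFP by 1.01 on the log2 scale (limma adjusted p = 0.000317) and stood at -0.24 after Adeno-Cre (adjusted p = 0.261). The interaction was 0.77 (SE 0.14, 95% interval 0.46 to 1.08, n = 3 per group), with an adjusted p of 0.319.

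Fasn, fatty acid synthase, followed the same order. It was at 9.10, 9.51 and 9.78 in Adeno-GFP fed livers, 7.60, 7.99 and 7.84 in Adeno-GFP fasted livers, 8.96, 8.93 and 8.73 in Adeno-Cre fed livers and 8.14, 8.24 and 8.01 in Adeno-Cre fasted livers. Its interaction was 0.91 (SE 0.22, 95% interval 0.44 to 1.39, n = 3 per group) (limma adjusted p = 0.544), with fasting responses of -1.65 after Adeno-GFP (adjusted p = 0.000166) and -0.74 after Adeno-Cre (adjusted p = 0.0266, and up to 0.0989 without Adeno-Cre fed array 1). Acly, which supplies cytosolic acetyl-CoA, and Pklr, the liver pyruvate kinase, had interactions of 0.65 (0.24 to 1.06) and 0.41 (0.08 to 0.74). Cholesterol synthesis and uptake genes, which another SREBP drives, had a median of 0.03, and 13 of 19 fell with fasting after Adeno-GFP and 9 after Adeno-Cre (12 and 6 to 9 with any 1 array left out), against the same background.

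The core of the fasting programme gave median interactions near 0. Of 44 measured genes of fatty acid oxidation, ketogenesis and PPARA, 21 rose with fasting after Adeno-GFP and 22 after Adeno-Cre, with median responses of 0.36 and 0.38 and a background of 1.19% and 1.48% of all probe sets. The median interaction was 0.01, with estimates from -0.76 to 0.74. Under an unadjusted p of 0.05 lay 1 gene, against 7.55% of all probe sets. The 95% interval lay within 1 of 0 for 40 of the 44 and within 0.5 of 0 for 29. Over all probe sets these shares were 95.7% and 56.5%. The count of 21 went as low as 10 without Adeno-GFP fasted array 2 and moved by over 1.5 times also without Adeno-GFP fed arrays 1 or 2. The count of 22 went as low as 6 without Adeno-Cre fasted array 2 and moved so also without Adeno-Cre fasted array 1 or any Adeno-Cre fed array.

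Cyp4a14, a fatty acid hydroxylase and strong PPARA target, was at 11.66, 11.28 and 10.90 in Adeno-GFP fed livers, 12.98, 13.14 and 13.04 in Adeno-GFP fasted livers, 10.90, 10.79 and 10.74 in Adeno-Cre fed livers and 12.98, 12.97 and 12.69 in Adeno-Cre fasted livers. Fasted arrays were above fed arrays after both viruses. It rose with fasting by 1.77 after Adeno-GFP (limma adjusted p = 0.000103) and 2.07 after Adeno-Cre (adjusted p = 5.03e-05), with an interaction of 0.30 (-0.18 to 0.78). Cpt1a, which admits fatty acids into mitochondria, had the narrowest interval of these genes, -0.05 (-0.28 to 0.18). Pdk4, which spares pyruvate in fasting, had -0.08 (-0.82 to 0.67), and the fasting hormone Fgf21 -0.15 (-0.48 to 0.18). With single arrays left out Cyp4a14 ran from 0.11 (without Adeno-GFP fed array 1) to 0.49 (without Adeno-GFP fed array 3), and Pdk4 from -0.31 (without Adeno-GFP fasted array 1) to 0.16 (without Adeno-Cre fasted array 3).

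Of 20 measured gluconeogenesis genes, 0 lay under an unadjusted p of 0.05 for the interaction, against 7.55% of all probe sets, and the median was 0.02. The 95% interval lay within 1 of 0 for 19 and within 0.5 of 0 for 9, against 95.7% and 56.5% of all probe sets. Pck1, which commits oxaloacetate to glucose synthesis, was at 12.08, 12.36 and 12.39 in Adeno-GFP fed livers, 12.64, 12.67 and 12.68 in Adeno-GFP fasted livers, 12.31, 12.17 and 11.54 in Adeno-Cre fed livers and 12.49, 12.36 and 12.22 in Adeno-Cre fasted livers. Adeno-Cre fed array 3 was lowest, and the Adeno-Cre groups overlapped. Its interaction was -0.04 (-0.55 to 0.47), and those of G6pc, which releases free glucose, Tat, which breaks down tyrosine, and the coactivator gene Ppargc1a were 0.14 (-0.76 to 1.04), 0.17 (-0.54 to 0.88) and -0.02 (-0.55 to 0.51). Without Adeno-Cre fed array 3 these 4 values turned or stayed negative, at -0.27, -0.32, -0.18 and -0.25. Igfbp1, which FOXO1 induces when insulin is low, had the widest interval of the genes fixed by name, -0.44 (-2.33 to 1.45), and its Adeno-Cre fed arrays ranged from 7.35 to 10.69. Its estimate was -1.34 without Adeno-Cre fed array 3 and 0.33, of the other sign, without Adeno-Cre fed array 2.

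**Figure D4:**
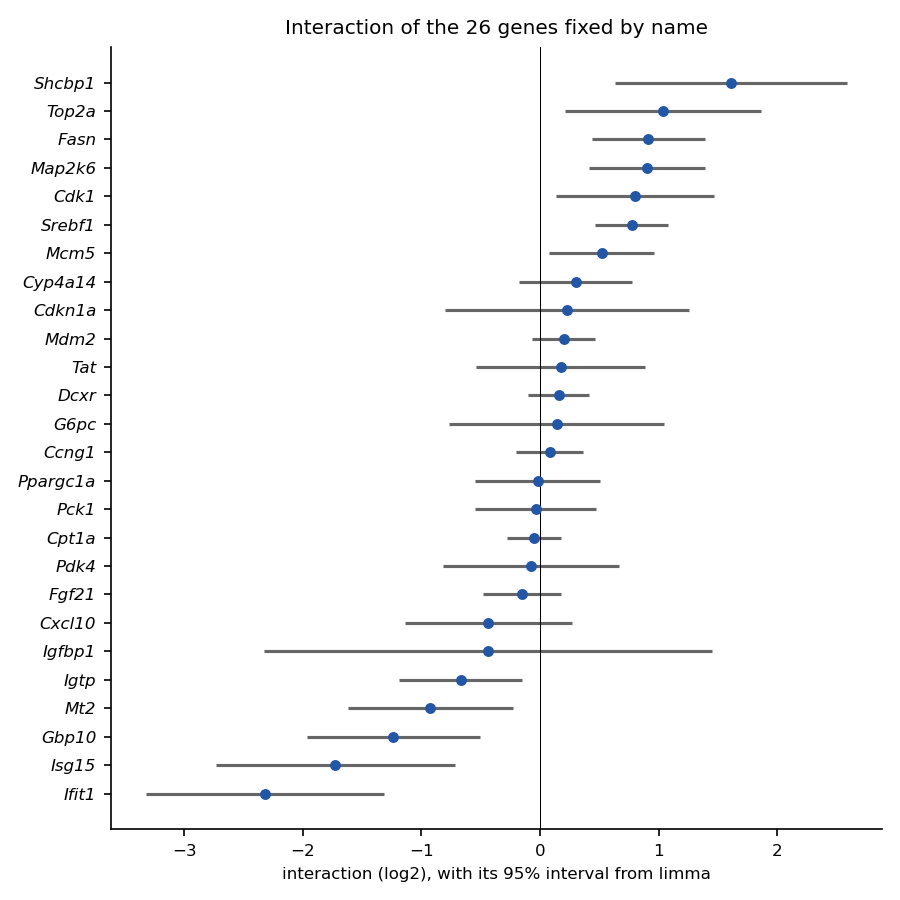
Interaction (log2, points) with its 95% interval from limma (lines) for 26 genes fixed by name, n = 3 per group. Intervals of Ifit1 and Isg15 lie below 0 and those of Srebf1 and Fasn above it, fasting genes such as Cpt1a and Pck1 span 0, and 0 of the 26 have an adjusted p under 0.05.

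Amino acid breakdown and urea cycle genes had a median interaction of 0.10, with 37 of 51 positive. Under an unadjusted p of 0.05 lay 0 of these genes and 7.55% of all probe sets. Their levels nevertheless differed in order between the groups: in 28 of 51 the Adeno-Cre fed arrays were below the other 9, against 2.32% of all probe sets, and in 25 the Adeno-GFP fasted arrays were above the other 9, against 2.09%. With fasting 12 rose after Adeno-GFP and 20 after Adeno-Cre, with medians of 0.28 and 0.29, against rises in 1.19% and 1.48% of all probe sets. The count of 12 went as low as 3 without Adeno-GFP fed array 2 and moved by over 1.5 times also without Adeno-GFP fed array 1 or Adeno-GFP fasted arrays 1 or 3. The count of 20 went as low as 6 without Adeno-Cre fasted array 1 and moved so also without Adeno-Cre fed array 3.

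Targets of p53 were read as the check of deletion. Of 35 measured, 3 fell with Adeno-Cre in fasted livers (6 without Adeno-Cre fasted array 3) and 3 in fed livers (1 without Adeno-GFP fed array 1), against 0.472% and 0.383% of all probe sets, and the median interaction was -0.05. Ccng1, a cyclin that p53 induces directly, was at 11.12, 11.23 and 11.04 in Adeno-GFP fed livers, 11.12, 10.90 and 11.05 in Adeno-GFP fasted livers, 10.58, 10.43 and 10.63 in Adeno-Cre fed livers and 10.62, 10.54 and 10.40 in Adeno-Cre fasted livers. Both Adeno-Cre groups were below both Adeno-GFP groups without overlap. It fell by 0.50 in fasted livers (limma adjusted p = 0.0102) and by 0.58 in fed livers (adjusted p = 0.0146, above the threshold without Adeno-GFP fed arrays 1 or 3), with an interaction of 0.08 (-0.20 to 0.36). Dcxr, a carbonyl reductase, fell by 0.55 and 0.70 (adjusted p = 0.00373 and 0.00644), with an interaction of 0.16 (-0.11 to 0.42). Mdm2, the ubiquitin ligase of p53, had 0.20 (-0.07 to 0.46).

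Cdkn1a, which encodes the cell cycle inhibitor p21, was at 7.68, 8.28 and 7.62 in Adeno-GFP fed livers, 9.40, 7.65 and 8.39 in Adeno-GFP fasted livers, 7.15, 7.21 and 7.19 in Adeno-Cre fed livers and 7.71, 8.24 and 8.14 in Adeno-Cre fasted livers. The Adeno-Cre fed arrays were lowest and close together, and the Adeno-GFP fasted arrays spread widely. Its interaction was 0.23 (-0.80 to 1.25), and the estimate was -0.19 without Adeno-GFP fasted array 2. Of the 35 targets, 5 lay under an unadjusted p of 0.05, 1 higher and 4 lower, against 7.55% of all probe sets.

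Slc44a3, a member of the choline transporter-like family, had the smallest p of the 23521 probe sets tested. It was at 8.16, 8.18 and 7.95 in Adeno-GFP fed livers, 7.51, 7.41 and 7.57 in Adeno-GFP fasted livers, 7.97, 7.96 and 7.84 in Adeno-Cre fed livers and 8.27, 8.40 and 8.49 in Adeno-Cre fasted livers. Adeno-Cre fasted livers were highest and Adeno-GFP fasted livers lowest, and fasting moved the 2 injections in opposite directions. It fell with fasting after Adeno-GFP by 0.60 on the log2 scale (limma adjusted p = 0.0047) and rose after Adeno-Cre by 0.47 (adjusted p = 0.0197, above the threshold without Adeno-Cre fasted array 2 or Adeno-Cre fed arrays 1 or 3). The interaction was 1.07 (SE 0.13, 95% interval 0.79 to 1.34, n = 3 per group), with an unadjusted p of 2.24e-06 and an adjusted p of 0.0526. The adjusted p was 0.0167 with dim probe sets left out, 0.0118 with a trended and robust prior, 0.0481 with 1 probe set per gene and 0.0401 without Adeno-GFP fed array 3, and it ranged up to 0.337 over the other alternatives. The estimate stayed between 1.01 and 1.14 in all 19 alternatives.

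Gadd45g, a stress-induced gene of the growth arrest and DNA damage family, was at 5.88, 6.13 and 5.97 in Adeno-GFP fed livers, 7.57, 7.26 and 7.73 in Adeno-GFP fasted livers, 6.22, 5.97 and 6.10 in Adeno-Cre fed livers and 6.62, 6.46 and 6.44 in Adeno-Cre fasted livers. Gadd45g was above 7 only on the Adeno-GFP fasted arrays, and on the fed arrays it lay from 5.88 to 6.22, under the array medians. It rose with fasting after Adeno-GFP by 1.53 (limma adjusted p = 3.93e-05) and stood at 0.41 after Adeno-Cre (adjusted p = 0.0975), with an interaction of -1.11 (SE 0.17, 95% interval -1.48 to -0.75, n = 3 per group) and an adjusted p of 0.259. Gstm3, a glutathione transferase, was at 10.78, 10.48 and 10.70 in Adeno-GFP fed livers, 8.65, 8.14 and 8.47 in Adeno-GFP fasted livers, 11.03, 11.36 and 11.30 in Adeno-Cre fed livers and 10.16, 10.05 and 10.44 in Adeno-Cre fasted livers. It fell with fasting after both viruses, by 2.23 and 1.01 on the log2 scale (limma adjusted p = 1.24e-05 and 0.0048), with an interaction of 1.22 (SE 0.21, 95% interval 0.77 to 1.67, n = 3 per group). Gstm genes are near-identical copies, so signal of one may include another.

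Tuba1b, an alpha tubulin, had an interaction of 0.71 (0.41 to 1.01) and Slc25a4, which exchanges ADP and ATP across the mitochondrial membrane, one of 0.65 (0.40 to 0.90). Rdh11, a retinol dehydrogenase, had 0.69 (0.43 to 0.95), Mlh3, of mismatch repair, 0.64 (0.40 to 0.89), Kcnk15, a potassium channel, -0.63 (-0.87 to -0.38), and Ikbip 0.49 (0.28 to 0.70). Bex3 and Hamp2, a hepcidin whose close copy Hamp could share its signal, had 1.24 (0.69 to 1.79) and 1.03 (0.56 to 1.51). The other members of the 20 smallest p, Catsperb (0.71 (0.46 to 0.96)), Serpina3i, Mir326, Vmn1r86 and Olfr344, had every group mean under the lowest array median, where signal and background cannot be told apart.

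Map2k6, a kinase upstream of p38, was lowest in Adeno-Cre fed livers. It was at 8.47, 8.48 and 8.23 in Adeno-GFP fed livers, 8.43, 8.95 and 8.49 in Adeno-GFP fasted livers, 7.32, 7.18 and 6.89 in Adeno-Cre fed livers and 8.48, 8.04 and 8.28 in Adeno-Cre fasted livers. The Adeno-Cre fed arrays were apart and the other 9 overlapped. It fell with Adeno-Cre in fed livers by 1.26 on the log2 scale (limma adjusted p = 0.00762) and stood at -0.36 in fasted livers (adjusted p = 0.274), with an interaction of 0.90 (SE 0.22, 95% interval 0.41 to 1.39, n = 3 per group). Mt2, a metallothionein induced by glucocorticoids and zinc, was at 9.52, 10.47 and 10.47 in Adeno-GFP fed livers, 11.65, 11.79 and 12.14 in Adeno-GFP fasted livers, 11.09, 11.04 and 10.90 in Adeno-Cre fed livers and 12.03, 11.55 and 11.78 in Adeno-Cre fasted livers. The Adeno-GFP fed arrays were lowest, and its interaction was -0.93 (-1.62 to -0.23).

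Markers of the other liver cell types gave 0 calls for the interaction. Kupffer cell markers had a median of -0.32 with 11 of 13 negative, and 1, against 7.55% of all probe sets, lay under an unadjusted p of 0.05. Their list mean was 7.36 to 7.82 in Adeno-Cre fasted, 7.58 to 8.06 in Adeno-Cre fed, 7.72 to 8.25 in Adeno-GFP fasted and 7.88 to 7.94 in Adeno-GFP fed livers. Adeno-Cre fasted arrays lay below Adeno-GFP fed arrays, and every other pair of groups overlapped. The list median was -0.16 without Adeno-GFP fasted array 1, and moved by over 1.5 times also without Adeno-Cre fasted array 2. Marco, a scavenger receptor, had -0.85 (-1.44 to -0.25), C1qc, of complement, -0.32 (-0.73 to 0.09), and the Kupffer markers Clec4f and Adgre1 -0.52 (-1.32 to 0.29) and -0.39 (-1.01 to 0.23). With single arrays left out, Clec4f ran from -0.76 to -0.18, nearest 0 without Adeno-GFP fasted array 1, and Adgre1 from -0.57 to -0.17, nearest 0 without Adeno-Cre fasted array 2.

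Markers of sinusoidal endothelium had a median of 0.28 with 17 of 19 positive, and 3, against 7.55% of all probe sets, lay under an unadjusted p of 0.05. Their mean was 8.32 to 8.34 in Adeno-GFP fed livers and 7.80 to 8.27 on the other 9 arrays, lowest in Adeno-Cre fed array 2. Without that array the list median was 0.15 and 0 members lay under that p, and over all omissions the median ran from 0.15 to 0.39. Clec4g, a lectin of these cells, had 0.38 (0.05 to 0.70), Rspo3, a Wnt enhancer of the central vein, 0.34 (0.02 to 0.65), and the receptors Kdr and Tek 0.60 (0.03 to 1.16) and 0.46 (-0.01 to 0.94). Among red blood cell markers only Slc4a1 and Ermap were measured, at -0.47 (-0.74 to -0.19) and -0.09 (-0.40 to 0.22), with levels near or under the array medians. Hepatocyte markers had a median of 0.02 and stellate cell markers -0.01. What these cell types add to the interferon and cell cycle values was not tested.

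**Figure D5:**
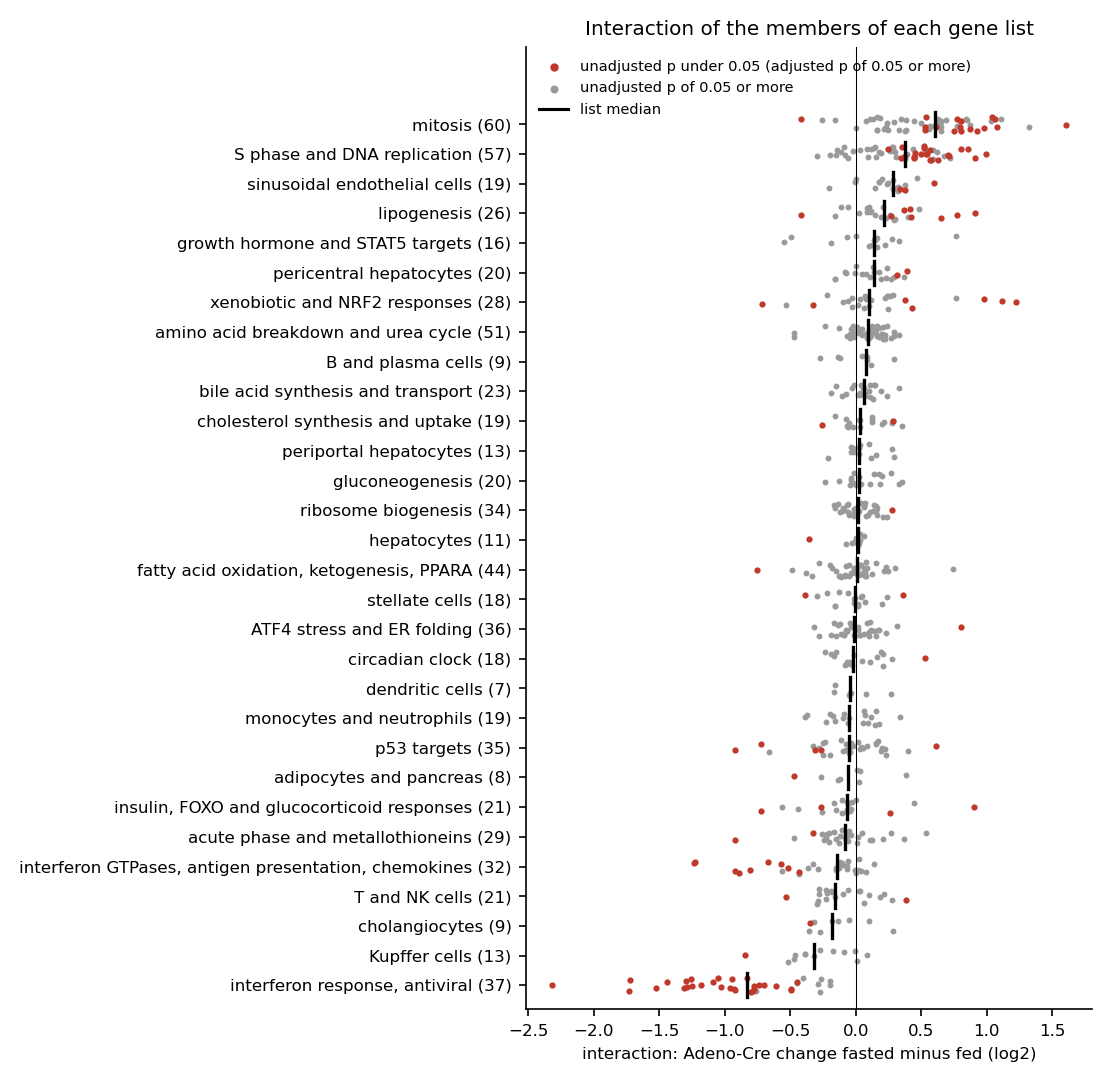
Interaction (log2) of every measured member of each gene list with at least 5 members (points; number measured in parentheses), with list medians as bars; red points have an unadjusted p under 0.05, and 0 have an adjusted p under it. Antiviral genes lie lowest (median -0.83) and mitosis genes highest (median 0.61), and lists of the fasting programme centre near 0.

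The other lists of liver functions gave medians of -0.08 to 0.14. Xenobiotic and NRF2 responses held 7 of 28 under an unadjusted p of 0.05, 5 higher and 2 lower, and insulin, FOXO and glucocorticoid responses 4 of 21, against 7.55% of all probe sets. The count of 7 was 4 without Adeno-Cre fed arrays 2 or 3 or Adeno-GFP fasted array 3 and 11 without Adeno-GFP fasted array 2. The count of 4 was 2 without Adeno-Cre fasted array 2 or Adeno-GFP fasted array 2. Acute phase genes held 2 of 29, pericentral hepatocyte genes 2 of 20, circadian clock genes 1 of 18, stress genes of ATF4 and ER folding 1 of 36 and ribosome biogenesis genes 1 of 34. Bile acid genes (23), growth hormone targets (16) and periportal genes (13) held 0.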

How the data were processed

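Each of the 12 samples is liver RNA, 200 ng, on an Affymetrix mouse gene array, per the labels' protocols. The authors deposited log2 values per probe set, normalized by RMA per the submitters' processing notes, which includes background correction and quantile normalization and so removes any shift common to a whole array. The genome build of the probe annotation is not given in the sources used here. Of 41345 probe sets, 23521 name exactly 1 gene and were tested, 1814 name several genes and 16010 have no name. Where a gene had more than 1 probe set (1082 of 22180 genes), the one of highest mean stood for it.

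Group means were fitted with limma 3.58.1 in R 4.3.3 (lmFit, contrasts.fit, eBayes) over all 12 arrays, with p-values adjusted by Benjamini-Hochberg over 23521 probe sets and a threshold of 0.05; intervals are 95% and two-sided. The procedure was tested on simulated data. Figures were drawn with matplotlib 3.10.9. Genes named are the 20 of smallest interaction p, up to 4 per list whose median is at least 0.2 in size, and 26 fixed by name. The members and gene lists were chosen with earlier results of these data known. Alternatives left out dim probe sets or each array in turn, normalized again, used array weights, a trended prior, all probe sets, 1 probe set per gene, or the replicate number as a block. Replicate numbers are shared between groups. Residual correlations between groups ran from -0.10 to 0.15 for arrays with the same number, with 3 of 18 over 0.1. For arrays with different numbers they ran from -0.19 to 0.13, with 2 of 36 over 0.1. The numbers were not taken as pairs, although these values do not settle whether they are. The number of arrays limits the precision of every value.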

Additional observations from a re-analysis of the deposited data

How the results depend on the processing

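The interaction count of 0 probe sets became 1 higher, which is Slc44a3, with dim probe sets left out, with a trended and robust prior, and with 1 probe set per gene; it stayed at 0 lower throughout. With dim probe sets left out, 991 probe sets differed with Adeno-Cre in fasted and 557 in fed livers, and with fasting 1158 after Adeno-GFP and 1032 after Adeno-Cre. A trended and robust prior gave 1015, 528, 1084 and 974 for the same comparisons, and all 41345 probe sets gave 91 for Adeno-Cre in fed livers and 388 and 332 for fasting. Probe sets at an unadjusted p under 0.05 for the interaction numbered 1154 without the dim ones and 2731 over all probe sets. These counts follow in part from how many probe sets are tested. With the replicate block 0 probe sets passed for the interaction and 1858 lay under an unadjusted p of 0.05, with 598, 239, 615 and 546 calls in the 4 simple comparisons, and the block changed no call of the interaction. Leaving out 1 array at a time gave 368 to 912 calls for Adeno-Cre in fasted livers, 27 to 341 in fed livers, 282 to 756 for fasting after Adeno-GFP and 220 to 760 after Adeno-Cre, 0 to 1 higher and 0 lower for the interaction, and 1381 to 2666 probe sets (5.87% to 11.3%) at an unadjusted p under 0.05; by list, that count was 9 to 39 for mitosis, 12 to 26 for S phase and 4 to 10 for lipogenesis. The medians of the antiviral, mitosis, S phase and lipogenesis lists kept their sign in 76 of 76 values over 19 alternatives. Some medians nearer 0 did not: with single arrays left out, that of gluconeogenesis ran from -0.06 to 0.10, of p53 targets from -0.08 to 0.01 and of cholesterol genes from -0.03 to 0.12. Others kept their sign over the same omissions, such as amino acid breakdown genes (0.04 to 0.13) and bile acid genes (0.02 to 0.09). Of 65 named genes 8 changed sign in at least 1 of 19 alternatives, none of them with an unadjusted p under 0.05.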

Other observations

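Probe sets outside the annotation used for the comparisons gave similar shares. Of 17824 that name several genes or none, 1273 (7.142%) lay under an unadjusted p of 0.05 for the interaction. In limma, adjusted over all 41345 probe sets of the array, 0 of them passed. The smallest adjusted p was 0.0903, for a probe set with an interaction of 2.01 and an unadjusted p of 2.18e-06. Whether it passes depends on how many probe sets are adjusted together.

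Some genes outside the naming rule had interactions beyond 1 in size and are named after their values were seen. The interferon-induced GTPase gene Gm12250 had -1.69 and Rnf213, a large ubiquitin ligase, -1.05. The heat shock genes Hspa1a and Hspa1b, near-identical copies whose signals cannot be separated, had -1.11 and -1.13, with Adeno-Cre fed levels of Hspa1a at 7.88, 8.11 and 6.48. These 2 estimates were imprecise, with SE of 0.49 and 0.71 and limma unadjusted p of 0.0434 and 0.139, so the interval of Hspa1b spanned 0. Trim43c had -1.90, with log2 levels of 7.96, 8.94 and 9.00 in Adeno-GFP fed, 11.34, 10.81 and 11.72 in Adeno-GFP fasted, 9.37, 9.91 and 8.55 in Adeno-Cre fed and 10.14, 9.99 and 9.97 in Adeno-Cre fasted livers. The probe set for Mir344d-2 had -1.68 with the same order of groups.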
